A study of Columba livia with 19 samples.

Results

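Among 15392 genes measured in the regrowing feather collar of domestic rock pigeons (Columba livia), 61 were more abundant in recessive red birds of both alleles in a batch collected in 2020, with little difference in a batch sequenced in 2017. The 61 genes were selected on these measured values. For each gene, d was the log2 ratio of mean CPM (counts scaled to a common library size) in recessive red to mean CPM in wild type, with 0.5 CPM added to each mean. A member had d of at least 0.75 for e2 and for e1 in batch 2, an absolute d under 0.4 in batch 1, and a mean of at least 2 CPM over the 6 recessive red birds of batch 2. Every difference below between groups that entered the rule is therefore a description of the selected genes, and nothing is supported with it.

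Messenger RNA was measured in 19 birds. Batch 2 held 3 recessive red birds homozygous for e2 (birds 5, 7 and 14), 3 recessive red birds homozygous for e1 (birds 6, 11 and 12), 1 wild-type carrier with 1 copy of e1 (bird 22), and 5 wild-type birds (00, 20, 21, 23 and 24). Batch 1 held 3 recessive red birds homozygous for e1 (birds 1, 3 and 4) and 4 wild-type birds (1, 2, 3 and 4). Several flight feathers of one wing of each bird were plucked, and new feathers grew in their place over 9 to 10 days. From each pigmented feather, 4 to 5 mm at the proximal end were taken, and the collar was kept without the dermal pulp. The feathers of a bird formed 1 sample, the bird was the replicate, and the labels give neither sex nor age. The allele e2 was sampled only in batch 2, and the year, the birds and the sequencing of a batch cannot be told apart.

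SOX10 is a transcription factor of the neural crest that melanocytes, the pigment cells, need for their development and for pigment synthesis. Melanocytes of the feather collar pass pigment to the growing epidermal cells, either as black to brown eumelanin or as red to yellow pheomelanin. The recessive red alleles are changes at the SOX10 locus, and the birds carry red feathers in place of dark ones. The collar is a bulk tissue of epidermal cells with melanocytes among them. More or fewer cells of a type and more or less RNA per cell therefore cannot be told apart.

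The genes carry identifiers of the Cliv2.1 annotation, and 0 of them matched a table of 22830 pigeon genes of another assembly. The 61 genes are therefore described by identifier, without name or role, and neither SOX10 nor the defining markers of melanocytes and epidermis were examined here. Total counts were 13559606 to 23168538 per bird, and 14107 to 14385 genes had a count. The 10 most abundant genes took 5.43% to 8.42% of the counts of a bird. No pair of birds had identical columns.

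The members ranged widely in abundance. Their mean over the recessive red birds of batch 2 was 2.23 to 307 CPM with a median of 14 CPM, against 35.0 CPM over the 11349 genes with at least 2 CPM in those birds, here called expressed genes. Of the 61, 26 lay between 2 and 10 CPM, 24 between 10 and 100 CPM, and 11 at 100 CPM or more. In e2 birds d was 0.76 to 3.14 with a median of 0.98. In e1 birds of batch 2 it was 0.75 to 2.02 with a median of 0.96. In batch 1, where the limits of the rule were ±0.4, d was -0.23 to 0.40 with a median of 0.15. It was above 0 in 44 members, 72.1%, against 67.0% of expressed genes, and below 0 in 17.

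The limits of the rule fell within a continuous range of values. A306_00002859, with d of 0.751 in e1 of batch 2, was the member nearest that limit, and A306_00008538 lay outside it, just under 0.75. On the e2 limit, A306_00010052 had d of 0.765 and lay inside, and A306_00004548 had 0.731 and lay outside. For abundance, A306_00014291 had 2.23 CPM inside and A306_00010916 had 1.86 CPM outside. In batch 1, A306_00002859 had d of 0.398 inside and A306_00002682 had 0.409 outside.

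Without the condition on batch 1, 172 genes met the conditions in batch 2. Of these, 104 had d of 0.4 or more in batch 1 and 52 had 0.75 or more. In 7 d was -0.4 or below, and in 148, 86.0%, it was above 0, against 67.0% of expressed genes. Over the 172 genes the median d in batch 1 was 0.53, against 0.07 over expressed genes. The members are thus the genes of a larger set whose d in batch 1 was nearest 0.

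**Figure D1:**
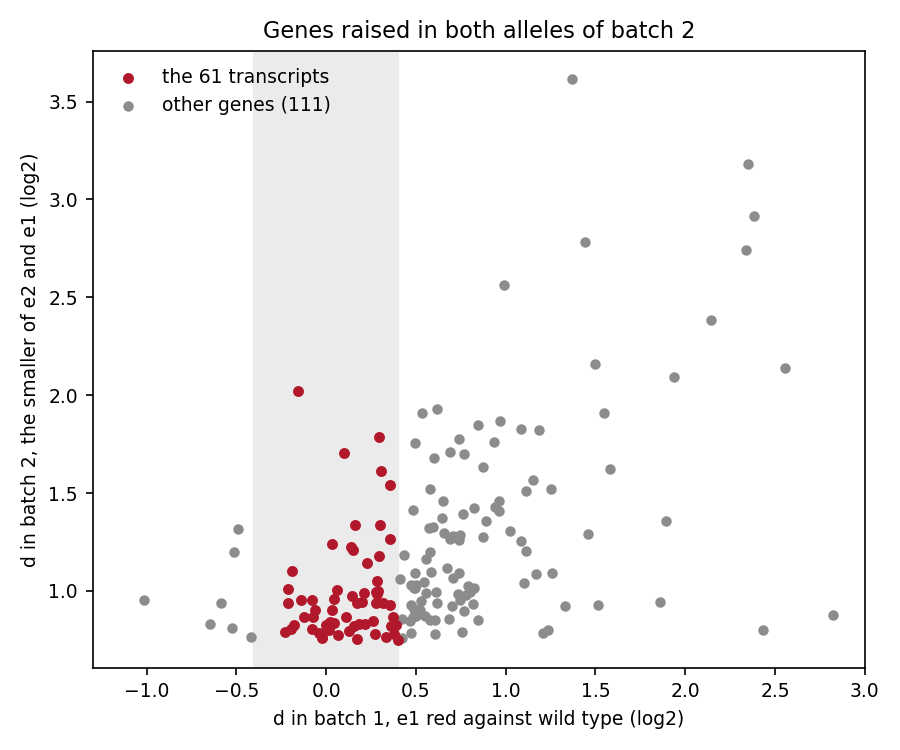
The d of batch 1 is set against the smaller d of both alleles in batch 2, on log2 scales, for the 172 genes that met the batch 2 conditions; members are coloured. The 61 members occupy the band within 0.4 of 0, and 104 genes lie at or above it.

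Summed over the 61 members, the share of all counts was 0.315% ± 0.0273 in e2 birds (SD, n = 3) and 0.288% ± 0.0855 in e1 birds of batch 2 (SD, n = 3). The 5 wild-type birds of batch 2 averaged 0.148% ± 0.0112 (SD, n = 5). In batch 1 it was 0.208% ± 0.0385 in e1 birds (SD, n = 3) and 0.196% ± 0.0302 in wild type (SD, n = 4). The means of both groups of batch 1 lay between those of the recessive red and the wild-type birds of batch 2. This holds for the sums, to which the most abundant members add most, and single members differed, as given below.

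A score for each bird was the median over members of log2(CPM + 0.5) minus the wild-type mean of the same batch. The e2 birds 5, 7 and 14 scored 1.01, 1.06 and 1.17. The e1 birds 6, 11 and 12 of batch 2 scored 1.33, 0.71 and 0.95, and the carrier scored 0.22. The wild-type birds of batch 2 scored -0.13 to 0.17. In batch 1 the e1 birds 1, 3 and 4 scored -0.07, 0.55 and -0.003, and the wild-type birds 1, 2, 3 and 4 scored 0.16, 0.25, -0.28 and -0.15. Bird 3 thus stood above the other e1 birds of its batch and above its wild-type birds.

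**Figure D2:**
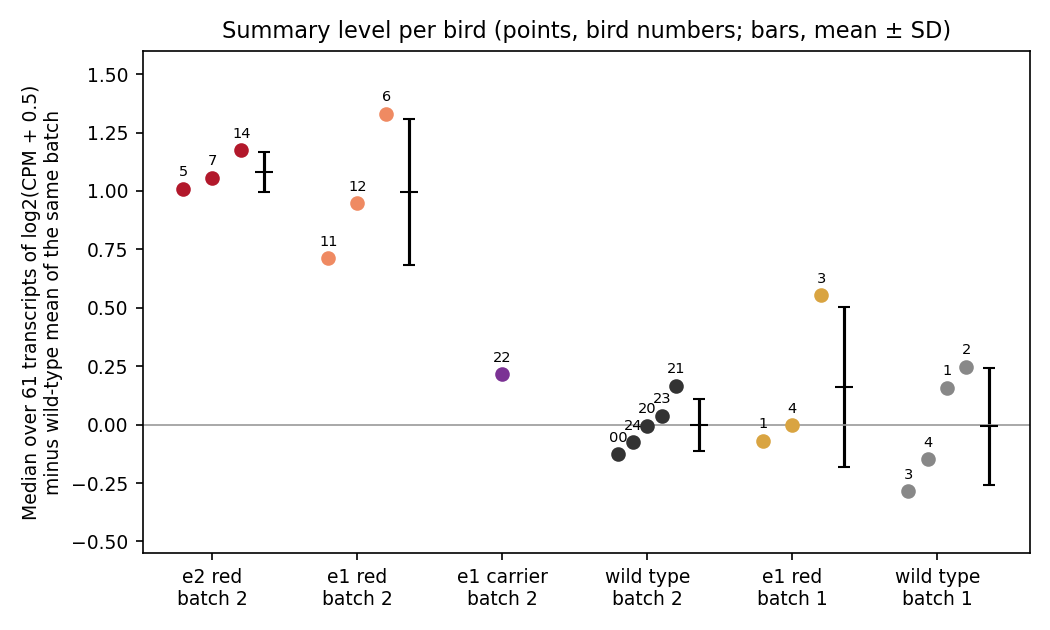
Each point is the score of 1 bird, the median log2 difference of the 61 members from the wild-type mean of its own batch, by group. The 6 recessive red birds of batch 2 score 0.71 to 1.33, and those of batch 1 score -0.07 to 0.55.

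The e1 birds of batch 1 did not move together. Bird 3 was above every wild-type bird of batch 1 in 35 of 61 members, a position it held in 24% of expressed genes. Bird 1 held that position in 2 members, against 24.3% of expressed genes, and bird 4 in 3 members, against 29.3%. The rule held the e1 mean of batch 1 near its wild-type mean, so a high bird 3 leaves birds 1 and 4 low. Without bird 3 the median d of batch 1 was -0.09, with 14 members at or below -0.4 and 3 at or above 0.4. Without bird 1 or without bird 4 the median was 0.26 or 0.25. Bird 3 was also the most deeply sequenced of the 19, with 23168538 counts, and the part of depth in its values was not tested. Among wild-type birds of batch 1, bird 2 was highest in 26 members, 42.6%, against 18.5% of expressed genes, with the lowest depth of its batch, 15090167 counts.

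**Figure D3:**
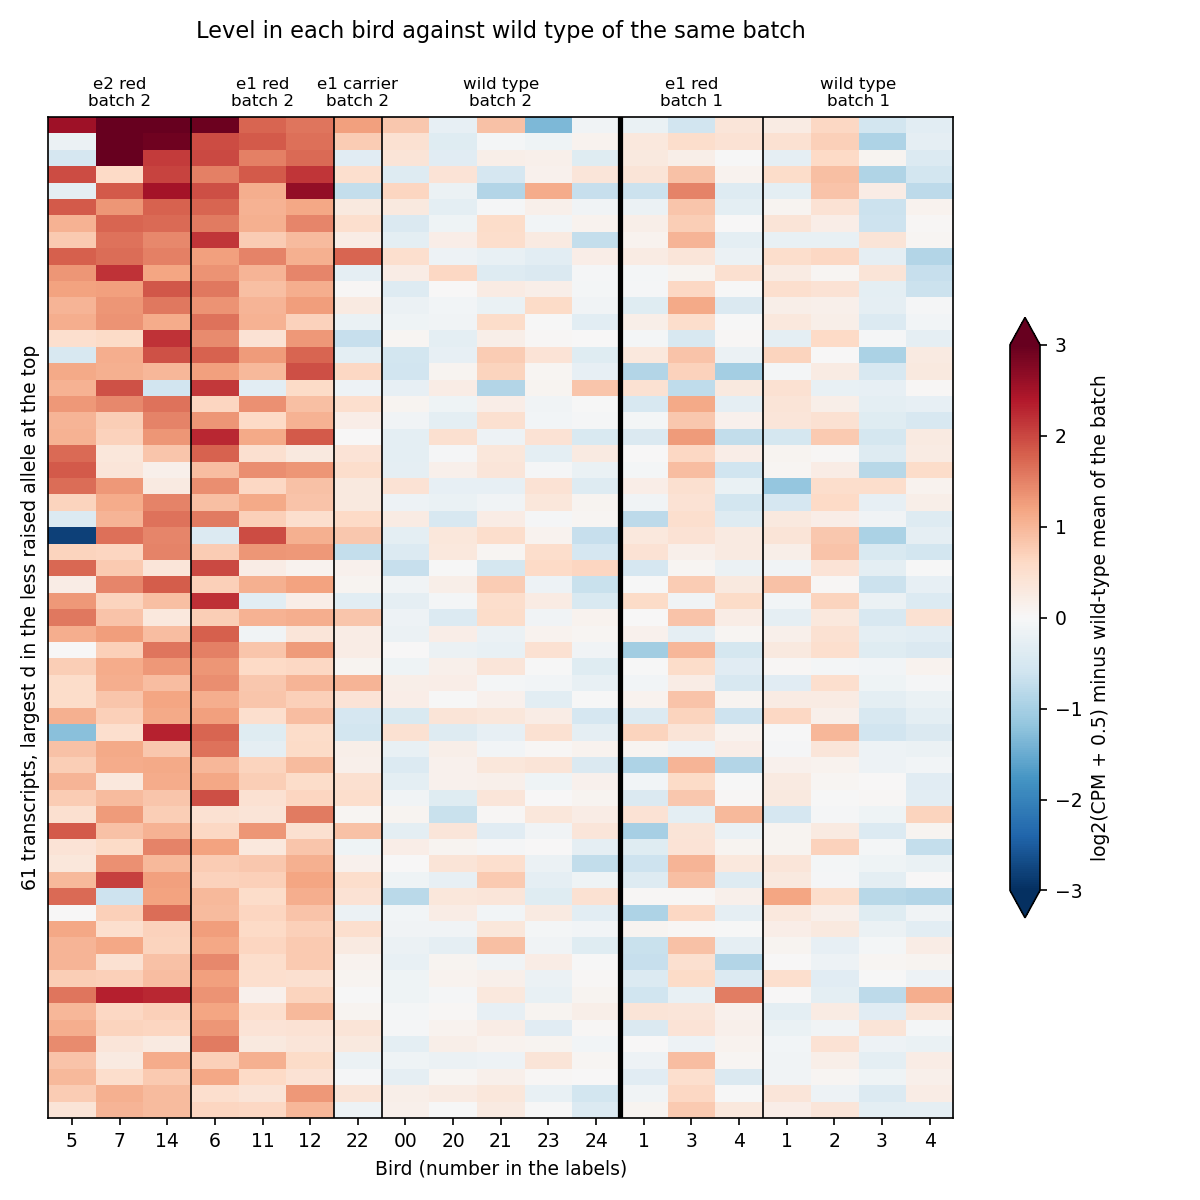
Each row is a member and each column a bird, coloured by log2(CPM + 0.5) minus the wild-type mean of the bird's own batch. The recessive red birds of batch 2 are mostly above 0. In batch 1, e1 birds 1, 3 and 4 are above 0 in 25, 52 and 29 members. Wild-type birds 1, 2, 3 and 4 of batch 1 are above 0 in 41, 48, 9 and 23 members.

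The most abundant member, A306_00002972, had 258, 337 and 382 CPM in e2 birds and 390, 235 and 238 CPM in e1 birds of batch 2. The carrier had 165 CPM, and the 5 wild-type birds had 121, 142, 153, 171 and 199 CPM. In batch 1 it had 152, 226 and 121 CPM in e1 birds and 157, 147, 146 and 166 CPM in wild type. All 6 recessive red birds of batch 2 were above the 5 wild-type birds, and in batch 1 the groups overlapped.

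The next most abundant, A306_00002743, had 321, 247 and 264 CPM in e2 birds and 367, 226 and 316 CPM in e1 birds of batch 2. Wild type of batch 2 had 136 to 182 CPM with a median of 164 CPM, and the carrier had 171 CPM. In batch 1, e1 birds had 285, 279 and 237 CPM and wild-type birds had 176, 256, 171 and 282 CPM. The e1 birds of batch 1 thus lay within the range of recessive red birds of batch 2, and so did wild-type birds 2 and 4 of batch 1.

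A306_00014562 and A306_00007615 had the largest d in the less raised allele. A306_00014562 had 121, 242 and 268 CPM in e2 birds and 159, 69.2 and 62.8 CPM in e1 birds of batch 2. Its wild-type birds of batch 2 had 7.69, 17.1, 18.8, 35.9 and 38 CPM. In batch 1 it had 54.1, 41.4 and 79.8 CPM in e1 birds and 73.4, 96.1, 41.9 and 49.9 CPM in wild type, and every bird of batch 1 was above every wild-type bird of batch 2.

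A306_00007615 had 2.27, 27.0 and 23.3 CPM in e2 birds and 11.6, 10.6 and 9.29 CPM in e1 birds of batch 2. Wild type of batch 2 had 1.93, 2.37, 2.48, 2.86 and 3.78 CPM. Bird 5, an e2 bird, was inside the wild-type range, and the other 5 recessive red birds were above it. Batch 1 had 3.74, 4.45 and 4.11 CPM in e1 birds and 4.24, 5.10, 1.32 and 2.35 CPM in wild type.

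**Figure D4:**
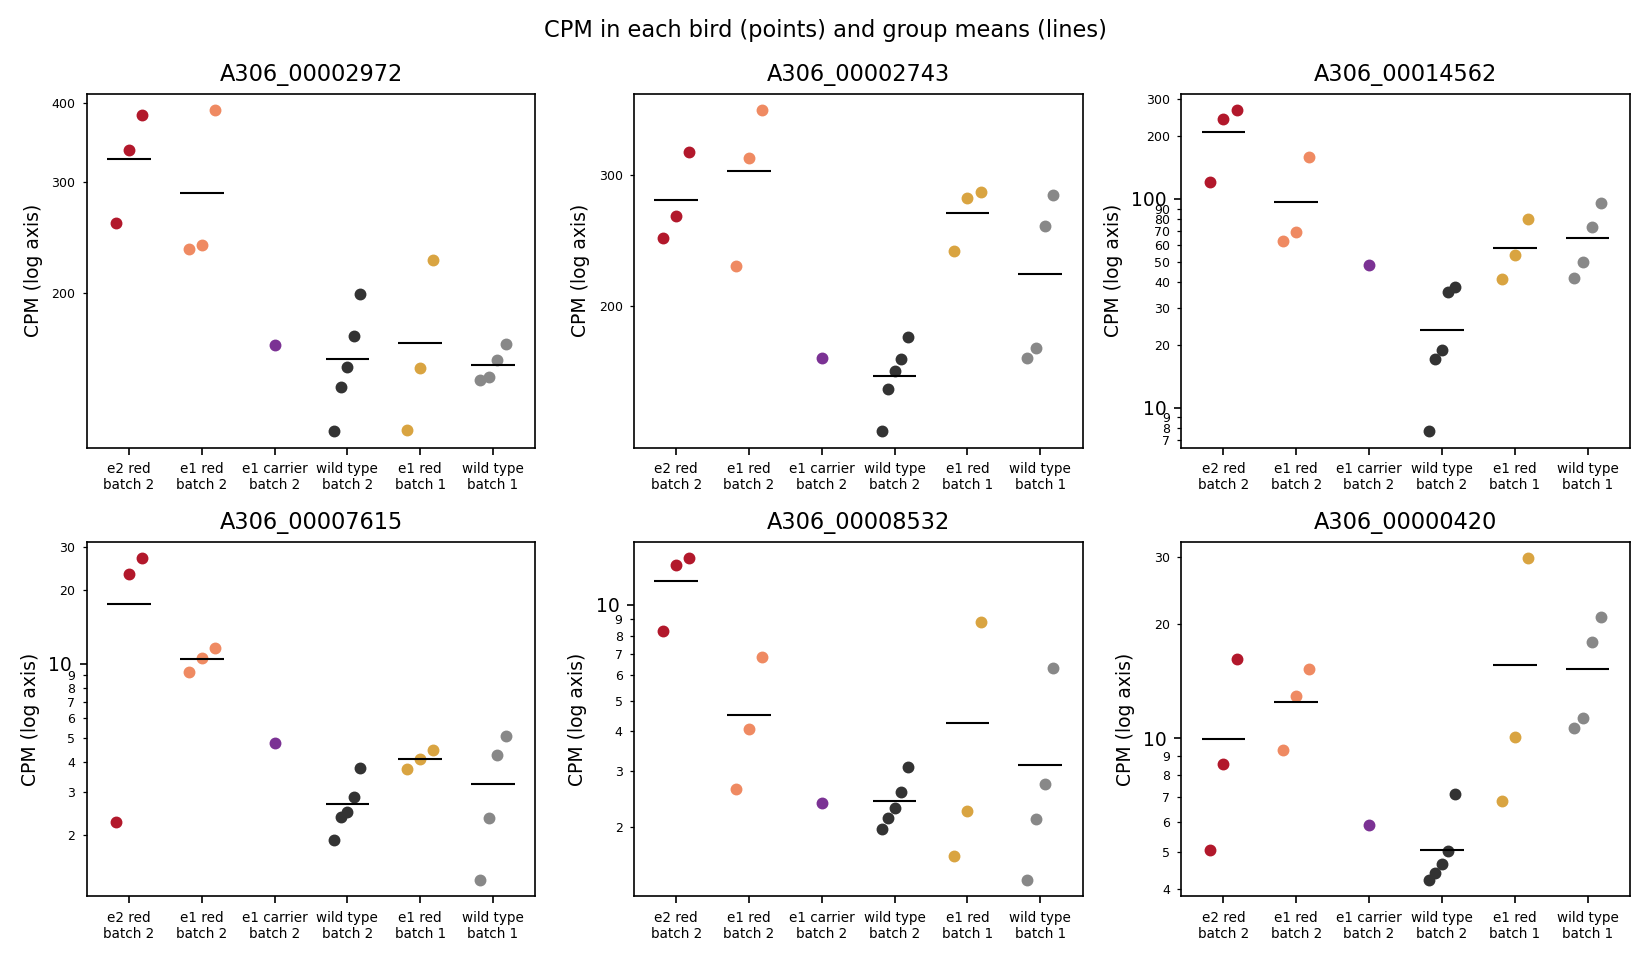
CPM on log axes for 6 members, with a point for each bird and a line at each group mean, except the carrier, which is 1 bird. In A306_00014562 the wild-type birds of batch 1 have 41.9 to 96.1 CPM and those of batch 2 have 7.69 to 38 CPM.

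The counts of calls give a background to these values. In edgeR's quasi-likelihood test with Benjamini-Hochberg adjustment, e2 birds were higher than wild type of batch 2 at an adjusted p under 0.05 in 19 of 61 members, against 1.05% of 13269 genes tested. The e1 birds of batch 2 were higher in 17 of 61, against 0.641%. All 6 recessive red birds were above all 5 wild-type birds in 36 of 61 members, 59.0%, against 1.96% of expressed genes. Both comparisons share the 5 wild-type birds, and the rule used both, so nothing is read from these shares. Leaving out 1 bird moved both counts. Without bird 14 the e2 count was 10, and without wild-type bird 00 or 23 it was 12. Without bird 6 the e1 count was 3, without bird 12 it was 5, and without wild-type bird 00 or 20 it was 7. Without wild-type bird 23 it was 9, and without wild-type bird 24 it was 8. For these leave-out fits the calls over all genes are not given here, so nothing is read from the changes. DESeq2 called 43 members for e2, with 690 of 15103 genes called in either direction, and 34 for e1, with 355 of 15103.

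In the authors' deposited table, which compares all birds of both batches, 34 of 61 members were higher in recessive red at an adjusted p under 0.05, against 2.79% of 14283 genes. The deposited log2 fold changes of the 61 members were 0.49 to 2.28 with a median of 0.75, and all were above 0. That table uses the birds that chose the members.

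The alleles e2 and e1 of batch 2 were also set against each other. The rule asked for a minimum d in each allele, which leaves out genes that were low in either, so their difference among members is a description as well. DESeq2 called 0 members, with its calls over all genes not given here, so nothing is read from that count. In edgeR's quasi-likelihood test 0 of 61 members were called, against 0.0226% of 13269 genes. At an unadjusted p under 0.05 there were 2 members, against 6.03% of genes. The log2 differences of e2 from e1 were -0.90 to 1.36 with a median of 0.05, above 0 in 34 members and below 0 in 27. The 95% interval had a median half-width of 0.80 and lay within ±1 in 32 of 61 members, and in the other members it reached a difference of 1 on the log2 scale or more. The 3 birds of one allele lay wholly above or below the 3 of the other in 2 of 61 members, 3.28%, against 6.83% of expressed genes.

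Among members higher in e2 birds, A306_00008532 had the smallest p. It had 8.29, 14 and 13.4 CPM in e2 birds and 6.83, 2.63 and 4.06 CPM in e1 birds, so the alleles did not overlap. The log2 difference was 1.36 ± 0.34 (SE), with a 95% interval of 0.61 to 2.1. That interval makes no allowance for its choice by smallest p, and its adjusted p in edgeR's quasi-likelihood test was 0.60. A306_00004806 followed at 0.45 ± 0.16 (SE), with 110, 122 and 141 CPM in e2 birds and 70.9, 116 and 84.7 CPM in e1 birds. Leaving out each bird gave 0.33 to 0.66. Below 0, A306_00001744 had 2.82, 2.11 and 3.52 CPM in e2 birds and 7.18, 3.04 and 5.31 CPM in e1 birds, a log2 difference of -0.90 that was -0.53 without bird 6. A306_00005704 had 4.03, 3.76 and 3.58 CPM in e2 birds and 4.34, 3.51 and 7.37 CPM in e1 birds, a difference of -0.42 that was -0.07 without bird 12.

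In batch 1 DESeq2 called 0 members, with its calls over all genes not given here. In edgeR 0 of the 60 members tested were called, against 0.465% of 12693 genes. At an unadjusted p under 0.05 there were 0, against 7.07% of genes. The remaining member, A306_00008341, was too low to be tested there. It had 0.0542, 1.90 and 0.158 CPM in e1 birds and 0.207, 1.06, 0.5 and 0 CPM in wild type. The count of 0 in wild-type bird 4 allows up to 0.144 CPM. Because the rule set the limit on d in batch 1, nothing is read from the absence of calls. The 95% intervals of the 60 members reached 0.75 in 38, and they held the batch 2 e1 value in 10 and lay below it in 50. The rule limited both values, and the comparison leaves out the error of the batch 2 value, so nothing is read from it. Leaving out bird 3 of the e1 birds gave 2 calls, both lower in e1, with 148 of 12825 genes called, and leaving out any other bird of batch 1 gave 0.

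Whether the e1 difference itself depended on batch was fitted as an interaction. In DESeq2 it called 0 members, with the calls over all genes not given here, so nothing is read from that count. In edgeR it called 0 of 61 members, and 0% of 13420 genes. At an unadjusted p under 0.05 there were 34 members, against 3.56% of all genes, a contrast that the rule set. Without the e1 bird 3 of batch 1 the interaction called 5 members, all with a larger e1 difference in batch 2, and 35 of 13409 genes. No test here shows that the genes were raised only in 2020, and they are called by their rule.

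Birds of the same genotype also differed between the batches. In wild type of batch 2 against batch 1, edgeR called 16 of 61 members lower, against 13.5% of 13420 genes, and 0 higher, against 12% of those genes. The median log2 difference of the members was -0.45, with 47 below 0 and 14 above, against 50.2% of genes above 0. In e1 birds of batch 2 against batch 1, 4 of 61 members were higher, against 3.64% of genes, and 0 were lower, against 3.43%. The median was 0.72, with 52 above 0, against 50.8% of genes. In plain CPM the medians were -0.23 for wild type, against 0.17 over expressed genes, and 0.72 for e1, against 0.09 over expressed genes. With edgeR's scaling the medians over the 13420 genes tested were 0.002 for wild type and 0.009 for e1. All birds of these groups entered the rule, so these values too are descriptions. Without bird 3 of batch 1 the e1 count was 16, and without e1 bird 1 or 4 of batch 1, or bird 12 of batch 2, it was 2. Without bird 6 of batch 2, 2 members were higher and 3 lower. The calls over all genes in these leave-out fits are not given here, so nothing is read from the changes.

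The 5 wild-type birds of batch 2 lay below all 4 of batch 1 in 11 of 61 members, 18%, against 9.67% of expressed genes. They lay above all 4 in 1 member, against 22.8%. The mean of the batch 1 birds lay below the wild-type mean of batch 2 in 17 members and above the recessive red mean of batch 2 in 7. It lay between them in the others, nearer wild type in 23 and nearer recessive red in 14.

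**Figure D5:**
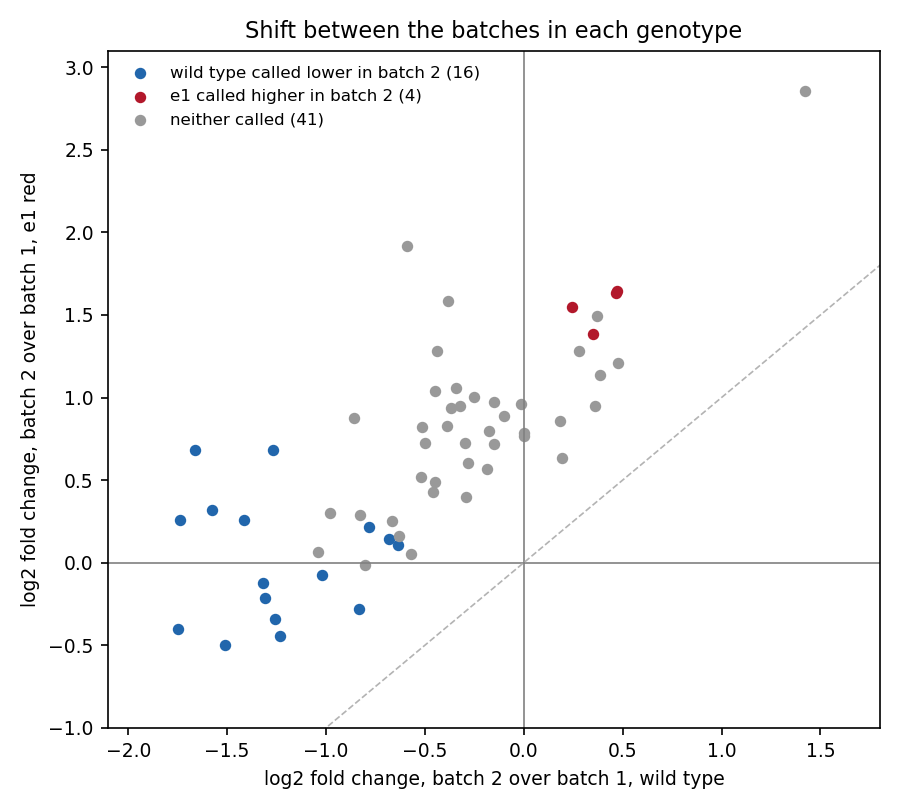
For each member, the log2 difference of batch 2 from batch 1 in e1 birds is set against that in wild type. In wild type 47 members are below 0, with a median of -0.45, and in e1 birds 52 are above 0, with a median of 0.72. Over all genes tested, 50.2% are above 0 in wild type and 50.8% in e1 birds.

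A306_00000420 had the most negative log2 difference of wild type of batch 2 from batch 1, -1.75 ± 0.39 (SE). It had 5.04, 4.41, 4.23, 7.11 and 4.66 CPM in wild type of batch 2, against 18, 20.9, 11.3 and 10.7 CPM in batch 1. The e1 birds had 15.2, 9.32 and 12.9 CPM in batch 2 and 6.83, 29.9 and 10.1 CPM in batch 1. In A306_00001744 the difference was -1.74 ± 0.49 (SE). Its wild-type birds had 0.673 to 1.74 CPM in batch 2 and 2.07, 5.83, 2.04 and 3.89 CPM in batch 1. In both members no wild-type bird of batch 2 reached a wild-type bird of batch 1. The highest differences among members were 1.42 ± 0.98 (SE) in A306_00008341 and 0.48 ± 0.64 (SE) in A306_00002501. Their 95% intervals were -0.63 to 3.47 and -0.88 to 1.83, and both held 0. In A306_00008341 it was 0.88 without wild-type bird 23 of batch 2 and 2.25 without wild-type bird 2 of batch 1. In A306_00002501 it was 1.10 without wild-type bird 2, 0.24 without bird 3 and 0.30 without bird 4, all of batch 1.

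The carrier is the bird that the rule did not use, and as 1 bird it has no test. It lay within the range of the 5 wild-type birds of batch 2 in 35 of 61 members, above all of them in 21 and below all in 5. Over expressed genes it was above all 5 in 12.7% and below all in 7.62%. The carrier was below every recessive red bird of batch 2 in 37 members, a position it held in 7.97% of expressed genes. It was nearer the wild-type mean than the recessive red mean in 49 members, and in 66.6% of expressed genes. The rule placed recessive red above wild type in every member, so nothing is read from these counts. The carrier's median difference from the wild-type mean was 0.22 over the members and 0.03 over expressed genes, on the log2(CPM + 0.5) scale. The rule favoured genes with a low wild-type mean in batch 2, which the carrier did not enter, so nothing is read from this difference.

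The carrier was highest relative to wild type in A306_00014291, at 2.76 CPM (exact binomial 95% interval 2.00 to 3.70, counting error only), against 0.289 to 0.882 CPM in wild type. In that member the 6 recessive red birds had 1.55 to 2.87 CPM. In A306_00014562 it had 48.5 CPM (exact binomial interval 45.1 to 52.0), above the wild-type birds and below every recessive red bird. The carrier was lowest in A306_00008341 and A306_00004690. In A306_00008341 it had 0.439 CPM from 7 counts (exact binomial interval 0.176 to 0.904), and the wild-type birds had 0.336 to 2.83 CPM. In A306_00004690 it had 1.38 CPM from 22 counts (exact binomial interval 0.864 to 2.09), below the 5 wild-type birds.

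In the median, members varied more between birds of a group than expressed genes did. The median SD on the log2 scale was 0.41 over members and 0.29 over expressed genes in e2 birds, and 0.37 and 0.25 in e1 birds of batch 2. It was 0.33 and 0.19 in wild type of batch 2, 0.44 and 0.17 in e1 birds of batch 1, and 0.37 and 0.22 in wild type of batch 1. All these birds entered the rule, and the members were less abundant, with a median of 14 CPM against 35.0 CPM. The part of either in these SDs was not tested, so they describe the selected genes only. The birds of a group could differ widely in a member. A306_00010182, chosen after its values were seen, had 0.497, 21.4 and 18.8 CPM in e2 birds, 4.75, 26.8 and 14.1 CPM in e1 birds of batch 2, and 3.87 to 9.60 CPM in wild type of batch 2.

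Deviations from the group means moved together in most members. Over the 18 birds that the rule used, the correlation of a member with the median of the other members was 0.51 in the median, with a range of -0.38 to 0.85, and was above 0 in 57 of 61. It was above 0.5 in 31 of 61. For the other 11288 expressed genes the median was -0.03, with a range of -0.90 to 0.91. Of these genes 5298 were above 0, 5990 were below 0, and 668 were above 0.5. The genes of a bird share its library, depth and scaling, and the rule chose the members with these same birds. The correlations are thus descriptions without a test. Bird 6 was highest of the e1 birds of batch 2 in 41 members, 67.2%, against 29.5% of expressed genes.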

How the data were processed

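Poly(A) RNA of the feather collar was sequenced in 19 birds. The authors deposited whole-number raw counts per gene, per the file headers. The authors deposited beside them a DESeq2 comparison with mean normalised signal, log2 fold change, test score and p-values, per the file headers. The submitters' processing notes name DESeq2 and give no version. For the aligner, the counting program and the use of strand, nothing is given in the sources used here.

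CPM was computed from each column sum, with 0.5 CPM added for logs. Tests used edgeR 4.0.16 (R 4.3.3): TMM scaling, filtering of low counts, glmQLFTest and Benjamini-Hochberg adjustment over all genes tested. Batch 2 and batch 1 were fitted separately for genotype, and together for batch. DESeq2 1.42.0 was an alternative, as were other scaling, no filter and leaving out each bird. Scripts were tested on simulated data. P-values set a difference between groups against the spread between these birds.

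The members, the lists and the tests were chosen with earlier results of these data known. Named members were the 2 most abundant, the 2 with the largest d in the less raised allele, up to 2 per direction in e2 against e1, in wild type between batches and in the carrier, and those nearest each limit. Gene lists by symbol could not be used, since 0 identifiers matched. Floors for a count of 0 are 3 counts, and intervals are 95%.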

Additional observations from a re-analysis of the deposited data

How the results depend on the processing

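The number of members depended on the settings of the rule. TMM scaling gave 76, a pseudocount of 0.1 gave 71, a pseudocount of 1 gave 54, the carrier counted as wild type gave 56, and medians in place of means gave 68, of which 28 were among the 61. Leaving out each bird gave 45 to 87, with 37 to 59 of the 61 kept, so the genes listed changed as well as their number. How many of the 61 were kept with TMM scaling, the pseudocounts or the carrier is not given here.

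DESeq2 called 34 members for e1 and 43 for e2 against wild type of batch 2, and 11 for e1 between batches. The DESeq2 calls over all genes between batches are not given here, so nothing is read from the 11. Leaving out each bird gave 3 to 12 calls for e1 and 10 to 22 for e2 against wild type of batch 2, and 0 to 0 for e2 against e1. It gave 0 to 2 for batch 1, 0 to 5 for the interaction, 2 to 16 for e1 between batches (without bird 6, 2 higher and 3 lower) and 11 to 19 for wild type between batches. For most of these fits the calls over all genes are not given here, and the cause of the changes was not tested. The median d of batch 1 ranged from -0.09 to 0.26.

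With the bird number as a replicate block in batch 1 the count was 0, and with the same birds and no block it was also 0. Same-numbered birds had correlations of -0.19, -0.08 and -0.13 in their deviations from the group means, and the other pairs had -0.09 to 0.18. These values cannot show whether same-numbered birds shared anything beyond a number. The genes called in all were 39 with the block and 60 without. Groups of 3 to 5 birds and members of a few CPM limit the precision of each value.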
